A study of Mus musculus with 12 samples.

Results

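Translation initiation factors bring the ribosome, the initiator transfer RNA and the messenger RNA together at the start codon. Their genes were followed here in cultured mouse natural killer (NK) cells, lymphocytes of the innate immune system that kill infected and tumour cells. The members were chosen by name: every gene of the deposited table whose symbol begins with Eif and a digit from 1 to 6, without the eIF2 kinases (Eif2ak), the eIF4E binding proteins (Eif4ebp), the Y-linked Eif2s3y and pseudogenes. This gave 45 genes of the 11706 in the table. All 45 averaged at least 1 RPKM (reads per kilobase of transcript model, set relative to the reads mapped in the library) over the libraries, the limit for testing, as did 11142 genes in all. Eif5a2 was not analysed here.

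Most messenger RNAs are read from their cap. The eIF4F complex (the cap-binding protein eIF4E, the scaffold eIF4G and the RNA helicase eIF4A) binds the cap, eIF2 carries the initiator transfer RNA with GTP, and eIF3 joins both to the small ribosomal subunit. eIF1, eIF1A and eIF5 control the choice of the start codon, eIF5B joins the large subunit, and eIF2B recharges eIF2 with GTP. Resting lymphocytes make little protein, and activation raises both translation and the supply of its factors.

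All cells came from spleens of C57BL6 mice, were grown for 6 days in IL-15 (10 ng/mL), were purified as NK cells and, per the labels, spent 18 hours in IL-2 (330 U/mL) and IL-12 (10 ng/mL), cytokines that activate NK cells. In the genotype experiment, the libraries labelled PKM2 WT (n = 3, below the WT-labelled libraries) came from mice heterozygous for NCR1Cre, a Cre recombinase under an NK cell receptor gene. The libraries labelled PKM2 KO (n = 2, the KO-labelled libraries) came from mice with the same Cre and PKM2fl/fl, which deletes the M2 isoform of the glycolytic enzyme pyruvate kinase in cells that express the Cre. In the drug experiment, WT cells without Cre received vehicle (n = 3) or TEPP-46 (n = 3), a small molecule that activates PKM2. The stated dose of TEPP-46 is 50 µM in the series design but 50 mM in the sample labels, and the vehicle is PBS in the former but 0.1% DMSO in the latter. How many animals or spleens went into each culture is not stated.

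The genotype libraries did not look like the drug libraries, although all are labelled as given IL-2 and IL-12. Ifng, the gene of interferon gamma, which that pair of cytokines strongly induces in NK cells, was between 18.8 and 24.3 RPKM in the 5 genotype libraries and between 797 and 1083 RPKM in the 6 drug libraries. Pkm was at 221, 198 and 199 RPKM in the WT-labelled libraries, at 76.7 and 78.4 RPKM in those labelled PKM2 KO, and between 1019 and 1208 RPKM in the drug libraries. Its ratio of means, PKM2 KO over PKM2 WT, was 0.377 here. The authors' deposited table gives 0.539 for that comparison under IL-2 and IL-12 and 0.396 for cells marked US at 18 hours. Whether the genotype libraries come from cells given IL-2 and IL-12 or from cells without them was not settled by the files, so values set between the 2 experiments may also compare stimulation. The 10 NK cell marker genes were all detected in all 11 libraries. Of 7 T cell markers 3 were in the table, and their summed level ran from 96.5 to 126 RPKM in the WT-labelled libraries, from 18.5 to 35.6 in those labelled PKM2 KO and from 12.9 to 16.9 in the drug libraries. Of 7 markers of granulocytes, basophils and mast cells 4 were in the table, summing to 78.3 to 183 RPKM in the WT-labelled libraries, 43.1 to 68.9 RPKM in those labelled PKM2 KO and 6.62 to 18.4 RPKM in the drug libraries. Read depth is unknown, so the precision of each value is that of the spread between libraries.

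As a family, the initiation factor genes were expressed above most genes. The median member lay between 52.9 and 65.3 RPKM in the genotype libraries and between 88.7 and 117 RPKM in the drug libraries, while the median of all tested genes lay between 13.2 and 14.4 RPKM in each library. The members summed to between 3628 and 3751 RPKM in the genotype libraries and between 5564 and 6800 RPKM in the drug libraries, with no overlap. The order of the members also differed. Eif3h, a subunit of eIF3, was the highest member in all 5 genotype libraries, at 327 to 336 RPKM. Eif4a1, the main eIF4A helicase, was the highest in all 6 drug libraries, at 864 to 1074 RPKM. The lowest in every library was Eif3j2, a copy of the eIF3j gene, at 1.28 to 5.06 RPKM.

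Of the comparisons made, members differed most between the WT-labelled libraries and the vehicle libraries. In that comparison 33 members were lower in the WT-labelled libraries and 6 were higher (limma, adjusted p under 0.05 over 11142 genes), where 38.6% of all tested genes were lower and 36.7% higher (75.3% in all). The members' median log2 fold change was -0.68, against -0.00 over all tested genes, and 39 of 45 members lay below 0, as did 50.2% of all genes. The groups did not overlap for 32 of the lower members (39.6% of all genes) and for the 6 higher ones (37.9% of all genes). The 2 groups differ in Cre, in the vehicle (0.1% DMSO in the labels, PBS in the series design), in experiment and in their Ifng level. Replicates 1 and 2 of PKM2 WT also lack the Y-linked transcripts that all vehicle libraries hold. These differences cannot be told apart, nor can fewer cells of a type and less RNA per cell. The markers of T cells and granulocytes moved with this contrast. So did the summed levels of 2 proliferation genes (151 to 191 RPKM in the WT-labelled libraries, 539 to 593 in vehicle) and of the 10 NK cell genes (10317 to 12047 against 21141 to 22214). The NK cell sum does not describe each gene: Ncr1, 1 of the 10, was at 235 to 241 RPKM against 90.5 to 108. Also moving were 2 of 4 dendritic cell markers (summed, 2.79 to 3.99 against 11.9 to 14.3) and 1 of 5 macrophage and monocyte markers (16.1 to 18.2 against 9.47 to 11.3). The others of these lists were not in the table. The part of these genes in the members' values was not tested. Small non-coding RNAs took a larger share of the RPKM in the genotype libraries. When they were left out and the libraries rescaled, the median of all genes moved to 0.17, the split of all genes from 4088 higher and 4299 lower to 4978 and 3441, and that of the members to 6 higher and 27 lower, with a median of -0.49. Under quantile normalization it was 7 higher and 28 lower, with a median of -0.42.

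**Figure D1:**
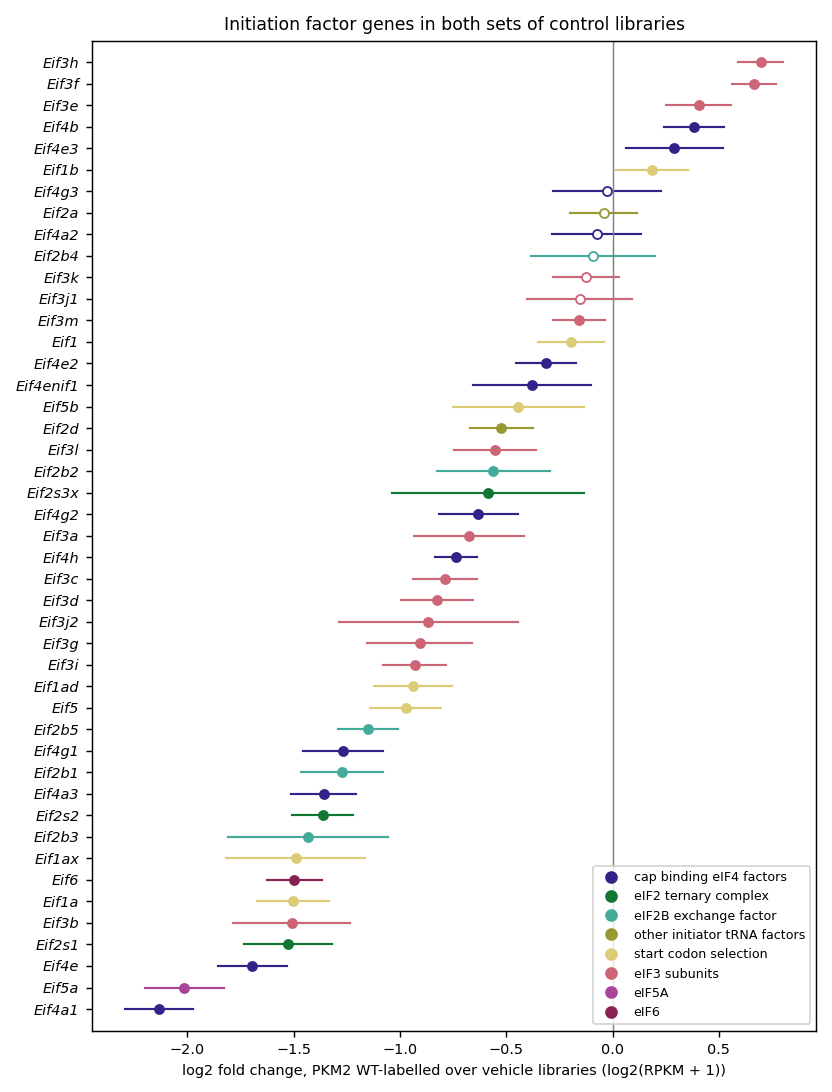
The difference of each of the 45 initiation factor genes between 3 WT-labelled and 3 vehicle libraries, as log2 fold change on log2(RPKM + 1) with its 95% interval from limma. Colours mark the role of the factor, filled points passed an adjusted p of 0.05 and open points did not; 33 filled points lie left of 0, down to Eif4a1 at -2.13, and 6 lie right of 0, up to Eif3h at 0.70.

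The members with the largest differences were the helicase gene Eif4a1, the eIF5A gene Eif5a and the cap-binding gene Eif4e, each lower in the WT-labelled libraries. Promoter sequence of these genes was read for the motif CACGTG, the palindromic E-box that reads the same on both strands and is bound by basic helix-loop-helix factors. The motif and the genes printed were chosen after the values were seen. RefSeq promoters (GRCm38.p6, 250 bases before to 50 after the start) matched 36 of the 45 members, and 9 of these held the motif: Eif1b, Eif3a, Eif3f, Eif3k, Eif4a1, Eif4e, Eif4g1, Eif4h and Eif5a. That is 25.0% of the matched members, against 8.09% of 27025 RefSeq genes and 12.1% of the 7501 tested protein-coding genes that matched. It was held by 6 of 27 matched members that were lower, by 2 of 3 that were higher and by 1 of 6 that did not pass the test. A gene with several start sites has several windows and so more chances of a match (6 windows for Eif5a, 2 for Eif4e). A match describes letters and does not show a bound site. The windows are set from RefSeq starts, which can differ from the 5' end of the gene in the GENCODE annotation. By GENCODE bounds, the stretches printed for Eif5a, Eif4e, Eif4g1 and Eif1b lie inside the gene, and those for Eif4a1 and Eif3f lie before it. The stretches around the motif follow for 4 members that were lower (Eif4a1, Eif5a, Eif4e, Eif4g1) and for 2 that were higher (Eif3f, Eif1b), so that the motif can be seen on both sides of the contrast; each is written along the strand of its gene and the capitals mark the motif.
Eif4a1, chr11:69672567-69672652, minus strand: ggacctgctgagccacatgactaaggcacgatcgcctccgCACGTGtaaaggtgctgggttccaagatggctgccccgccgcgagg
Eif5a, chr11:69921415-69921500, minus strand: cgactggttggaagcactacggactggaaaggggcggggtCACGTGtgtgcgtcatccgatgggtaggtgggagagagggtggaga
Eif4e, chr3:138527164-138527249, plus strand: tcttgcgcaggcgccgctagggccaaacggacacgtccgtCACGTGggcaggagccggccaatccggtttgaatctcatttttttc
Eif4g1, chr16:20672633-20672718, plus strand: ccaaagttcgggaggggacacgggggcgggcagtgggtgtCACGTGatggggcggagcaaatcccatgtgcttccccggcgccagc
Eif3f, chr7:108934307-108934392, plus strand: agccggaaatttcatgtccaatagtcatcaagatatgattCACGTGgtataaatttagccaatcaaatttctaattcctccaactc
Eif1b, chr9:120492542-120492605, plus strand: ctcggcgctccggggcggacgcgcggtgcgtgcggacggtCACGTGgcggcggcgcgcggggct

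Among the 12 Eif4 genes, grouped here by name as cap-binding genes, 8 were lower in the WT-labelled libraries than in vehicle. Of the others, 2 were higher and 2 did not pass. Eif4a1 (ENSMUSG00000059796, chr11:69666936-69672423, GRCm38) was at 236, 218 and 223 RPKM in the WT-labelled libraries and at 979, 927 and 1074 RPKM in vehicle. Every vehicle library was far above every library labelled PKM2 WT, with a mean 4.40 times higher. The log2 fold change, PKM2 WT over vehicle, was -2.13 (SE 0.07, limma adjusted p = 1.15e-08). Eif4a1 shares exon bases with small nucleolar RNA genes and has a near-identical processed copy, Eif4a-ps4, which was at 3.6 to 5.53 and at 22.5 to 29.9 RPKM in the same groups, so reads may be divided between them. Eif4a2, a helicase of the same kind that also acts in cap-dependent initiation, was at 182, 174 and 200 RPKM against 198, 175 and 213 RPKM. The ranges of the 2 groups overlapped, and the 95% interval of its log2 difference ran from -0.28 to 0.13. Eif4a2 too shares exon bases with small nucleolar RNA genes (up to 178, with Snora81) and, on the opposite strand, with Rfc4 (194). The part of such reads in its level was not tested. Eif4a3, a helicase of the exon junction complex, was lower by -1.36 on the log2 scale (SE 0.07, limma adjusted p = 9.78e-08).

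The gene of the cap-binding protein itself was also lower. Eif4e (ENSMUSG00000028156, chr3:138526179-138559696) was at 28.1, 27.2 and 31.1 RPKM in the WT-labelled libraries and at 96.8, 87.1 and 102 RPKM in vehicle. The groups were well apart, and the log2 fold change was -1.69 (SE 0.07, limma adjusted p = 3.72e-08). Eif4e2, which binds caps weakly and is known for translational repression, was lower by only -0.31 (SE 0.06, limma adjusted p = 0.00124), and did not pass after quantile normalization or rescaling. Eif4e3, a further cap-binding relative, was at 14.6, 13.6 and 13.6 RPKM against 10.8, 12.0 and 10.8 RPKM, higher by 0.29 (SE 0.10, limma adjusted p = 0.025). It did not pass without replicate 1 of PKM2 WT, or without replicate 1 or 3 of vehicle (0.26 to 0.34 with 1 library left out).

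Scaffolds and helpers of eIF4F also differed among themselves. Eif4g1, the main scaffold, was at 65.5, 63.8 and 68.6 RPKM against 162, 147 and 172 RPKM in vehicle, lower by -1.27 (SE 0.08, limma adjusted p = 5.95e-07). Eif4g2, a scaffold that lacks the eIF4E binding site, was lower by -0.63 (limma adjusted p = 6.47e-05), and Eif4g3, at 31.8 to 39.9 RPKM against 33.8 to 40.04 RPKM, did not pass. The helicase cofactors also parted. Eif4h was lower by -0.74 (SE 0.04, limma adjusted p = 3.07e-07), while Eif4b was higher, at 184, 178 and 180 RPKM against 137, 130 and 149 RPKM (log2 fold change 0.38, SE 0.06, limma adjusted p = 0.000316). Eif4enif1, which carries eIF4E into the nucleus, was lower by -0.38 (limma adjusted p = 0.0179), and did not pass after quantile normalization or rescaling, nor without replicate 1 of PKM2 WT or of vehicle (-0.43 to -0.32).

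**Figure D2:**
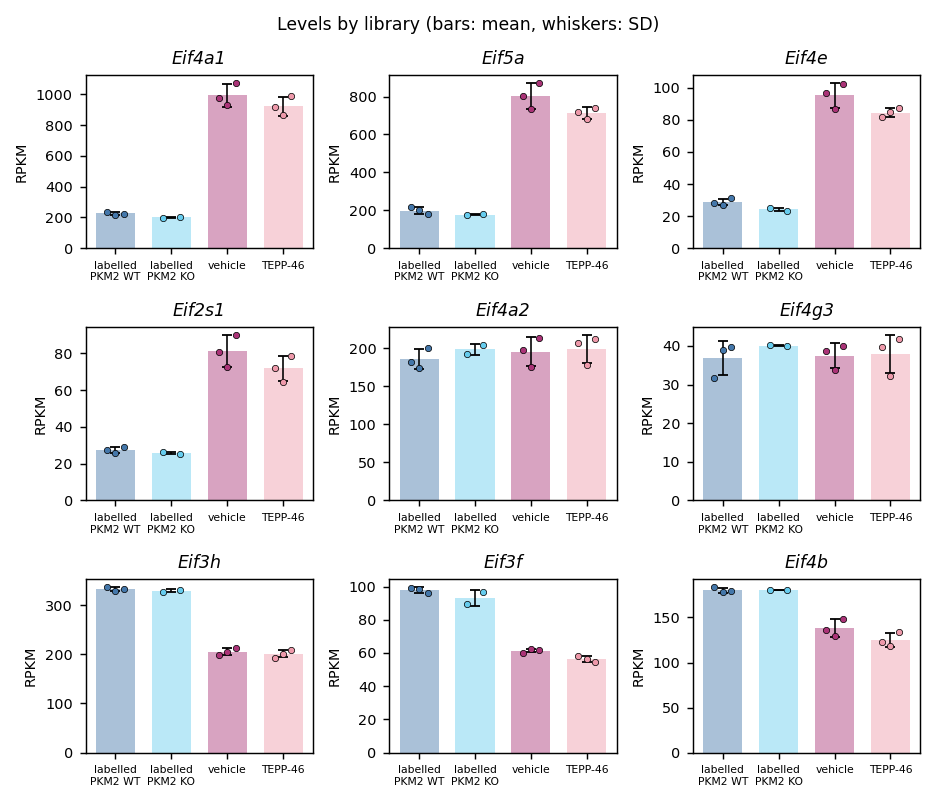
RPKM of 9 initiation factor genes in each of the 11 libraries; points are libraries, bars are group means and whiskers are the SD (n = 3, and n = 2 for the KO-labelled libraries). Eif4a1, Eif5a, Eif4e and Eif2s1 stand higher in all 6 drug libraries, and Eif3h, Eif3f and Eif4b in all 5 genotype libraries. Eif4a2 and Eif4g3 overlap between the genotype and drug libraries. Within the genotype libraries Eif4g3 is higher in each KO-labelled than in every WT-labelled library.

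RPKM is scaled by gene length, so the levels of paralogs can be summed and each given as a share. In the Eif4a family (Eif4a1, Eif4a2 and Eif4a3), Eif4a1 made up 46.0% ± 1.15 of the summed RPKM in the WT-labelled libraries and 71.2% ± 0.29 in vehicle (SD, n = 3 each). Eif4a2 made up 37.8% ± 2.09 and 14.0% ± 0.44. Both Eif4a1 and Eif4a2 share exon bases with small nucleolar RNA genes, so these shares may hold reads of those. In the Eif4e family, Eif4e2 held the largest share in the genotype libraries, 63.3% ± 1.5 against 24.7% ± 0.93 for Eif4e in those labelled PKM2 WT, and the pair was near level in vehicle, at 46.3% ± 0.83 and 48.1% ± 1.46. Eif4g1 made up 21.6% ± 1.64 of its family in the WT-labelled libraries and 31.2% ± 0.98 in vehicle. Eif1 held 82.3% ± 1.09 and 85.9% ± 0.21 of the sum of Eif1 and Eif1b. Within an experiment an exact two-sided permutation test of a share cannot go below p = 0.2 (PKM2 KO against PKM2 WT) or p = 0.1 (TEPP-46 against vehicle), so it could not have shown a difference in shares, and only the values are given. Eif4e held 22.8% ± 0.21 in the KO-labelled libraries (n = 2) and 45.6% ± 0.48 under TEPP-46 (n = 3), and Eif4a1 held 42.3% and 70.3%.

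All 3 measured subunits of eIF2 were lower in the WT-labelled libraries than in vehicle. Eif2s1, the alpha subunit whose phosphorylation slows initiation under stress, was at 27.7, 25.6 and 28.9 RPKM against 80.5, 72.6 and 89.9 RPKM in vehicle (-1.53 on the log2 scale, SE 0.09, limma adjusted p = 3.16e-07). Eif2s2, the beta subunit, was at 45.6, 47.8 and 50.6 RPKM against 126, 115 and 135 RPKM (-1.36, SE 0.06, limma adjusted p = 6.61e-08). Neither group overlapped the other for these subunits. The gamma subunit, which binds GTP and the initiator transfer RNA, has an X-linked gene, Eif2s3x, and a Y-linked copy, Eif2s3y, that the rule leaves out. Eif2s3x was at 70.9, 66.6 and 43.5 RPKM in the WT-labelled libraries, at 68.9 and 42.8 RPKM in those labelled PKM2 KO and between 79.8 and 97.5 RPKM in the drug libraries. The low values, 43.5 and 42.8 RPKM, belong to the genotype libraries that hold Y-linked transcripts, with Eif2s3y at 59.9 and 75.2 RPKM; the other genotype libraries list Eif2s3y at 0. All 6 drug libraries hold it, at 49.0 to 59.6 RPKM. The genotype libraries thus differ among themselves in Y-linked transcripts. Eif2s3x was lower than in vehicle by -0.59 (SE 0.20, limma adjusted p = 0.0235), and did not pass without replicate 3 of PKM2 WT or replicate 1 or 3 of vehicle (-0.72 to -0.37 with 1 library left out), nor after quantile normalization or rescaling. The sum of both genes was between 66.6 and 118 RPKM in the genotype libraries and between 133 and 157 RPKM in the drug libraries.

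**Figure D3:**
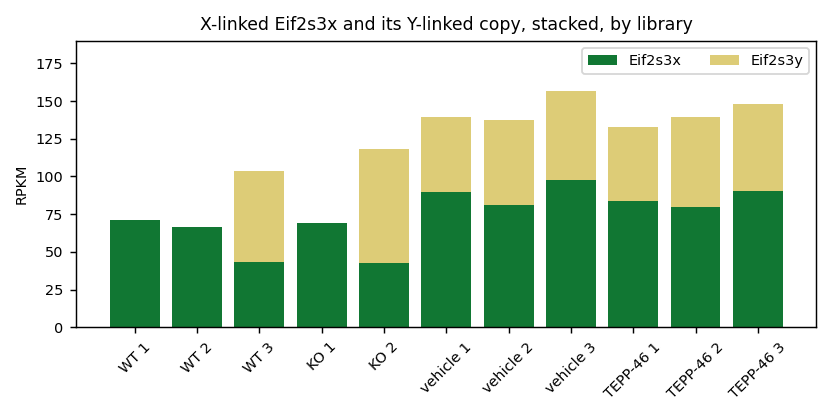
RPKM of the X-linked eIF2 gamma gene Eif2s3x and its Y-linked copy Eif2s3y, stacked for each of the 11 libraries (WT and KO are the WT-labelled libraries and PKM2 KO). Eif2s3y is listed at 0 in WT 1, WT 2 and KO 1, and Eif2s3x is lower in WT 3 (43.5 RPKM) and KO 2 (42.8 RPKM) than in these.

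The exchange factor eIF2B has 5 subunits, and 4 of its genes were lower in the WT-labelled libraries. Eif2b3 and Eif2b5, of the catalytic part, were lower by -1.43 (SE 0.17, limma adjusted p = 2.96e-05) and -1.15 (SE 0.06, limma adjusted p = 1.88e-07). The regulatory subunits Eif2b1 and Eif2b2 were lower by -1.27 (SE 0.09, limma adjusted p = 6.85e-07) and -0.56 (SE 0.12, limma adjusted p = 0.00164). Eif2b4, the remaining regulatory subunit, was at 21.4, 23.4 and 22.6 RPKM against 21.1, 22.4 and 29.2 RPKM. The ranges overlapped, and it did not pass. A pair of members delivers transfer RNA outside the eIF2 route. Eif2a was at 35.2 to 37.5 RPKM against 35.7 to 40.3 RPKM, and Eif2d was lower by -0.52 (SE 0.07, limma adjusted p = 5.08e-05).

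Of 7 genes grouped here by name under start codon selection and subunit joining, 6 were lower in the WT-labelled libraries. Eif1a, which encodes eIF1A and helps the ribosome scan, was at 22.2, 21.1 and 23.5 RPKM against 65.1, 60.5 and 69.2 RPKM in vehicle (-1.50, SE 0.08, limma adjusted p = 1.01e-07). Its X-linked paralog Eif1ax was at 9.26, 9.06 and 11.9 RPKM against 33.4, 29.8 and 26.9 RPKM (-1.49, SE 0.15, limma adjusted p = 8.52e-06). The related Eif1ad was lower by -0.94 and Eif5, which triggers GTP hydrolysis by eIF2, by -0.97 (limma adjusted p = 3.95e-06 and 1.5e-06). Eif5b, at 8.06 to 10.1 RPKM against 9.78 to 14.7 RPKM, was lower by -0.44 (limma adjusted p = 0.0144) with ranges that overlapped. It did not pass without replicate 1 of PKM2 WT or replicate 3 of vehicle (-0.60 to -0.33) or after rescaling, and shares 1643 exon bases with Rev1 on the opposite strand. The eIF1 genes differed least of this group. Eif1 was lower by -0.19 (limma adjusted p = 0.0261) but lay above 0, at 0.09, after quantile normalization, and did not pass after rescaling (-0.0051) or a shift to the same median (-0.13), nor without replicate 1 of PKM2 WT or replicate 1 or 3 of vehicle (-0.24 to -0.15 with 1 library left out). Eif1b was higher by 0.19 (limma adjusted p = 0.0472). It did not pass with the spread taken from these 2 groups alone (limma adjusted p = 0.0795) or with no variance trend (limma adjusted p = 0.0564), nor without replicate 2 or 3 of PKM2 WT or replicate 1 or 2 of vehicle (0.12 to 0.23).

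The 14 genes of eIF3, the largest initiation factor, differed from each other in direction. In the WT-labelled libraries 9 were lower than in vehicle, 3 were higher and 2 did not pass. Eif3b, which anchors the core with Eif3a, was at 52.5, 55.4 and 62.2 RPKM against 163, 145 and 184 RPKM (-1.51, SE 0.12, limma adjusted p = 2.14e-06). Eif3i, Eif3g and Eif3a, the other genes of that part, were lower by -0.93, -0.91 and -0.68. Every vehicle library was above every library labelled PKM2 WT for these genes.

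The 3 higher eIF3 genes were Eif3h, Eif3f and Eif3e. Eif3h (ENSMUSG00000022312, chr15:51786558-51865523) was at 336, 329 and 333 RPKM in the WT-labelled libraries and at 198, 205 and 212 RPKM in vehicle (0.70, SE 0.05, limma adjusted p = 7.47e-07). Eif3f was at 99.01, 98.8 and 96.1 RPKM against 60.2, 62.2 and 61.9 RPKM (0.66, SE 0.05, limma adjusted p = 8.91e-07). Neither gene's groups overlapped, and both stayed higher under all 3 other scalings tried. Eif3h and Eif3f pair with each other through a domain of the same kind, and their partner Eif3m was at 140, 129 and 133 RPKM against 153, 140 and 156 RPKM. Eif3m was lower by -0.16 (limma adjusted p = 0.0243) but passed as higher after quantile normalization (0.14, limma adjusted p = 0.0283). After rescaling it lay at 0.03 and did not pass. It did not pass after a shift to the same median (-0.09) or with the spread from these 2 groups alone (limma adjusted p = 0.0583), nor without replicate 2 or 3 of PKM2 WT or replicate 1 or 3 of vehicle (-0.20 to -0.13). Eif3e was higher by 0.40 (SE 0.07, limma adjusted p = 0.000373). Its neighbours in the complex had log2 fold changes of -0.83 for Eif3d, -0.79 for Eif3c, -0.55 for Eif3l and -0.13 for Eif3k, of which the first 3 passed; Eif3k passed, at -0.19, only without replicate 1 of PKM2 WT. Grouping the subunits by the parts of the complex was done after the values were seen. Eif3j1 and Eif3j2 are near-identical copies, so their split is uncertain, and Eif3d shares 2151 exon bases with an antisense gene, Gm17638.

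**Figure D4:**
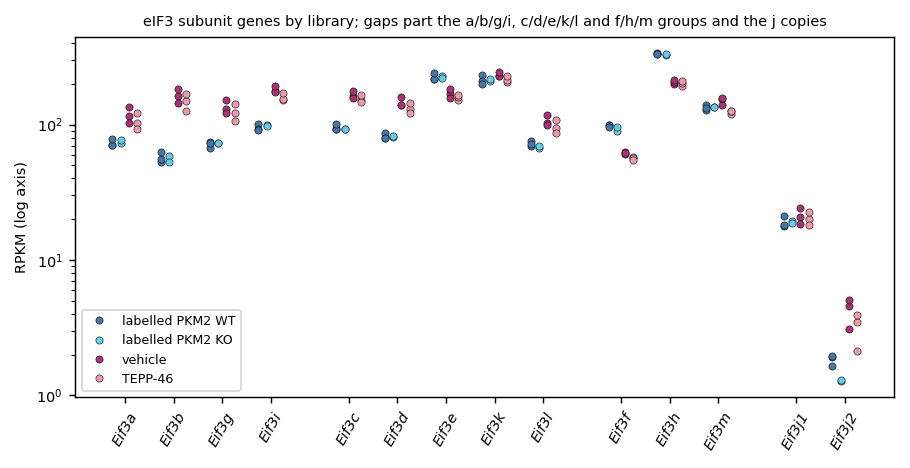
RPKM (log axis) of the 14 eIF3 subunit genes in each of the 11 libraries, coloured by group and set apart by the parts of the complex. The drug libraries stand above the genotype libraries for Eif3a, Eif3b, Eif3g and Eif3i, and below them for Eif3e, Eif3f and Eif3h.

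Eif5a and Eif6 act at the edges of initiation. Eif5a (ENSMUSG00000078812, chr11:69916714-69921958) encodes eIF5A, which carries the amino acid hypusine and also eases elongation. It was at 216, 199 and 180 RPKM in the WT-labelled libraries and at 806, 734 and 872 RPKM in vehicle (-2.01, SE 0.08, limma adjusted p = 3.2e-08). The mean was 4.05 times higher in vehicle, with a wide gap between the groups. Eif6, which keeps the large ribosomal subunit from joining too early, was at 44.6, 41.5 and 40.4 RPKM against 119, 115 and 128 RPKM (-1.50, SE 0.06, limma adjusted p = 2.19e-08).

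Under TEPP-46 no initiation factor gene passed the test against vehicle, and neither did any other gene (0 of 11142, 0.0% of all, limma). Unadjusted, 6 members were lower at p under 0.05 and 0 higher, where 4.68% of all genes were lower and 4.75% higher. With same-numbered libraries as blocks, 31 members were lower and 1 higher at unadjusted p under 0.05 (limma). That was 71.1% of the members, against 23.3% of all genes (1640 lower and 957 higher), and again 0 members passed. Of the 45 members 40 lay below 0, as did 56.6% of all genes (42.9% lay above), with a median log2 fold change of -0.12 against -0.02 over all genes. All 14 eIF3 genes, all 5 eIF2B genes and all 3 eIF2 genes lay below 0, also under the 3 other scalings tried, while 3 of 12 cap-binding genes and 2 of 7 genes of start codon selection lay above 0. Eif3h or Eif3j1 changed sign when some single libraries were left out. The median depended on the libraries used. It was -0.07 without replicate 3 of vehicle, which is the vehicle library with the highest summed level of the members, and -0.16 without replicate 2. The groups did not overlap for 7 members, all lower under TEPP-46 (7.71% of all genes were apart in that direction and 7.61% in the other).

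Eif6 had the smallest p in that comparison, at 102, 97.1 and 99 RPKM under TEPP-46 and 119, 115 and 128 RPKM in vehicle. All 3 treated libraries lay below all 3 vehicle libraries, and the log2 fold change was -0.28 (SE 0.05, limma adjusted p = 0.319). Eif3m was at 120, 126 and 126 RPKM against 153, 140 and 156 RPKM (-0.27, SE 0.05, limma adjusted p = 0.319), also without overlap. Eif2a was at 32.2, 32.4 and 34.1 RPKM against 37.4, 35.7 and 40.3 RPKM (-0.19, limma adjusted p = 0.425). The next smallest p belonged to Eif3f (-0.12), Eif2b5 (-0.20) and Eif3i (-0.20), each apart from vehicle in all 3 libraries, with limma adjusted p between 0.454 and 0.471. Eif4a1 and Eif5a, far apart between the control sets, were at 864 to 989 and 680 to 740 RPKM under TEPP-46, with 95% intervals of the log2 difference from -0.31 to 0.10 and from -0.36 to 0.02. Mki67, a marker of dividing cells, was at 121 to 132 RPKM under TEPP-46 and 141 to 150 RPKM in vehicle, and its part in the members' values was not tested.

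In the genotype comparison, read from libraries with low Ifng, no member passed either (limma; 11 of 11142 genes did, 0.0987%, with 0.018% higher and 0.0808% lower). Unadjusted, 3 members were lower in the KO-labelled libraries at p under 0.05, where 5.53% of all genes were, and 0 were higher (2.41% of all). The median member lay at -0.02 against 0 over all genes, and 30 of 45 members were below 0 (49.7% of all genes). The median turned to 0.00 and 0.01 under quantile normalization and rescaling. The groups did not overlap for 9 members lower in PKM2 KO (14.5% of all genes) and for 1 higher, Eif4g3 (10.2% of all genes).

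The 3 smallest p-values belonged to Eif3j2, Eif4e and Eif4a1. Eif4e was at 24.9 and 23.5 RPKM in the KO-labelled libraries and at 28.1, 27.2 and 31.1 RPKM in those labelled PKM2 WT (-0.24, SE 0.08, limma adjusted p = 0.565). Eif4a1 was at 198 and 204 RPKM against 236, 218 and 223 RPKM (-0.16, SE 0.05, limma adjusted p = 0.573). Both PKM2 KO libraries lay below all 3 PKM2 WT libraries for each. Eif3j2, the lowest member, was at 1.28 and 1.30 RPKM against 1.65 to 1.96 RPKM (-0.31, limma adjusted p = 0.564). Next came Eif1ad (-0.13), Eif5a (-0.16) and Eif2s2 (-0.11), with limma adjusted p between 0.689 and 0.742. For Eif3h, the highest member in these libraries, the 95% interval ran from -0.13 to 0.10. Mki67 was at 38.1 and 38.7 RPKM against 54.2 to 61.4 RPKM. The T cell markers summed to 18.5 to 35.6 RPKM against 96.5 to 126, and those of granulocytes, basophils and mast cells to 43.1 to 68.9 RPKM against 78.3 to 183. The part of these genes in the members' values was not tested.

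**Figure D5:**
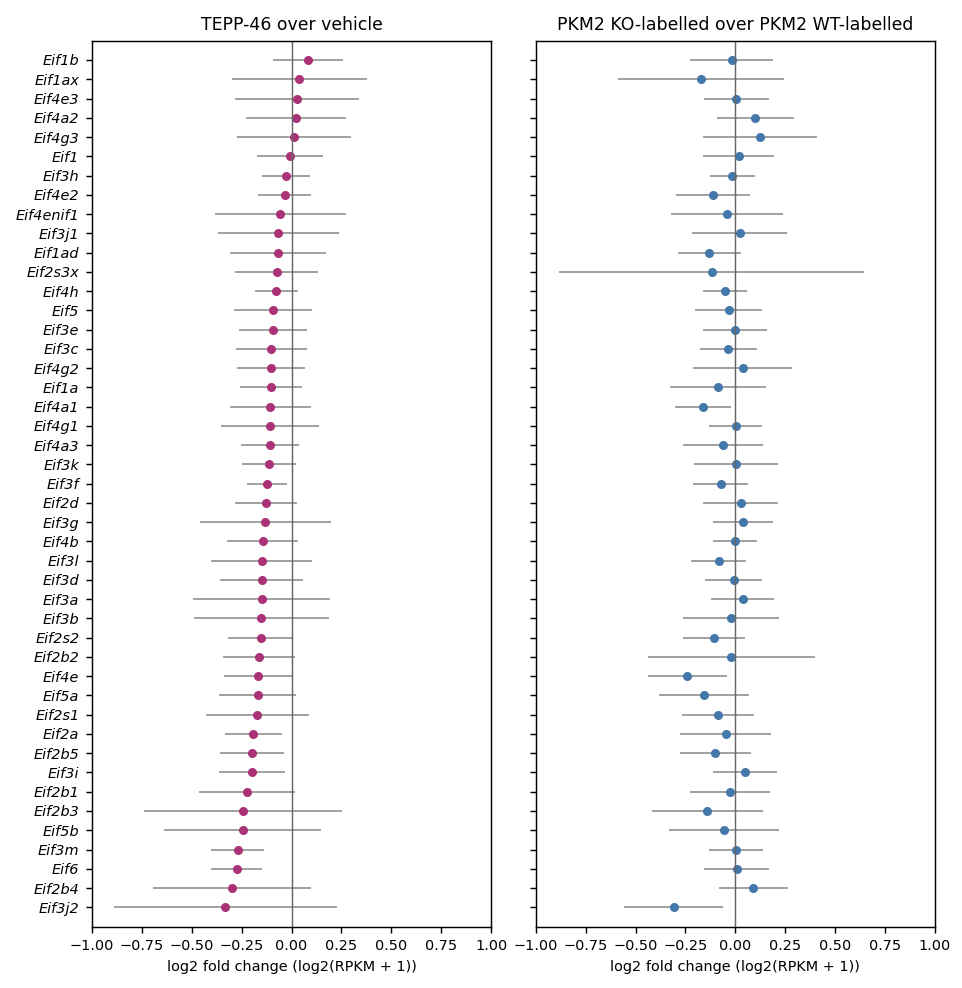
Log2 fold change on log2(RPKM + 1) with its 95% interval from limma for each of the 45 members, for TEPP-46 over vehicle (left) and for PKM2 KO over PKM2 WT as labelled (right), in 1 order. On the left 40 of 45 points lie below 0, between -0.33 and 0.08 in all; on the right 30 lie below 0, between -0.31 and 0.12, and no point in either panel passed an adjusted p of 0.05.

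Whether TEPP-46 and the loss of PKM2 differed in effect was tested as the difference of the log2 fold changes. The effects come from separate experiments with unlike Ifng and Pkm levels, and these cannot be told apart from a difference between the effects. No member passed (limma; 6 of all genes did, 0.0539%). Unadjusted, 3 of 45 members (6.67%) had p under 0.05, all with a difference below 0, where 6.72% of all genes had such a p and 2.62% had it with a difference below 0. The log2 fold change for TEPP-46 minus that for PKM2 KO was -0.27 for Eif3m, -0.28 for Eif6 (limma adjusted p = 0.588 for both) and -0.25 for Eif3i (limma adjusted p = 0.696). The authors' deposited table for PKM2 KO lists 11 genes and that for TEPP-46 lists 24, with no Eif gene in either. Both lists were cut at a minimum fold change and an adjusted p, so small differences would not be listed. Members here lay between -0.31 and 0.12 for PKM2 KO and between -0.33 and 0.08 for TEPP-46. The authors' PKM2 KO list is for cells under IL-2 and IL-12, with a Pkm ratio of 0.539 against 0.377 here.

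The regulators of initiation that the name rule leaves out were read from a separate list, of which 41 of 42 genes were tested. Against vehicle, 14 were higher and 18 lower in the WT-labelled libraries (36.7% and 38.6% of all genes), with a median of -0.18 (-0.00 over all genes). The gene with the largest positive difference was Pdcd4, a repressor of eIF4A, at 208, 203 and 204 RPKM against 47.3, 50.2 and 45.6 RPKM (2.08, SE 0.07, limma adjusted p = 8.11e-09). Paip2, which draws poly(A)-binding protein away from initiation, was also higher (1.10, limma adjusted p = 6.43e-07). Abce1, the ribosome recycling factor, was lower by -1.55 and Larp4, which binds poly(A) tails, by -1.20. The poly(A)-binding protein gene Pabpc4, at means of 26.4 against 71.7 RPKM, was lower by -1.41 (limma adjusted p up to 9.95e-06 for these 3). Pabpc1, a poly(A)-binding protein gene with a higher level, was higher by 0.71, at means of 521 against 318 RPKM (limma adjusted p = 0.000128). The eIF4E binding proteins, repressors that compete with eIF4G, differed in direction: Eif4ebp1 was lower by -1.09 and Eif4ebp2 higher by 0.40 (limma adjusted p = 5.82e-06 and 0.00023), and Eif4ebp3, at 0.77 RPKM against 1.11, did not pass.

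The eIF2 kinases, which phosphorylate Eif2s1 under stress, also differed from each other. Eif2ak3, the kinase of the endoplasmic reticulum, was higher by 0.53 (limma adjusted p = 7.68e-05) and Eif2ak2, the kinase for double-stranded RNA, lower by -0.56 (limma adjusted p = 2.7e-05), while Eif2ak1 and Eif2ak4 did not pass. Within the experiments no gene of this list passed. Eif2ak3 was at 53.8 and 53.8 RPKM in the KO-labelled libraries against 43.0, 42.4 and 45.7 RPKM (limma adjusted p = 0.439), and at 33.2, 39.9 and 33.7 RPKM under TEPP-46 against 29.5, 31.1 and 29.0 RPKM (limma adjusted p = 0.471). In both experiments the groups did not overlap. Atf4, whose translation rises when eIF2 is phosphorylated, was at 68.9 to 79.3 RPKM in the genotype libraries and 170 to 191 RPKM in the drug libraries.

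Elongation and termination factors, with 16 of 17 genes tested, had a median of -0.46 against vehicle, with 10 lower and 4 higher in the WT-labelled libraries (38.6% and 36.7% of all genes; median -0.00). Eef1e1, a scaffold of the tRNA synthetase complex, was lower by -2.47 (limma adjusted p = 1.16e-07). The termination factors Etf1 and Gspt1 were lower by -1.50 and -1.36 (limma adjusted p = 7.07e-08 and 2.42e-06). Dohh, the enzyme that completes the hypusine of eIF5A, was lower by -1.22 (limma adjusted p = 4.07e-07). Eef2k, the kinase that inhibits elongation factor 2, was higher by 1.52 (limma adjusted p = 2.1e-07). Of the elongation factors themselves, Eef1a1 and Eef2 were higher by 0.28 and 0.18 (limma adjusted p = 0.00293 and 0.028). Eef1g and Eef1d were lower by -0.57 and -0.42 (limma adjusted p = 0.000384 and 0.0107), and Eef1b2 did not pass. No gene of this list passed for TEPP-46 or PKM2 KO.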

How the data were processed

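Poly(A)-selected stranded RNA-seq libraries were made from cultured NK cells, per the labels; the series title speaks of total RNA. Reads were aligned with STAR to mm10, per the submitters' processing notes; how reads were counted, whether strand was used, and tool versions were not given in the sources used here. RPKM per gene were deposited by the authors, who also gave, in tables of their listed genes, a mean ratio (fold) and p-value, quoted here as the authors' values. By name, 11 RPKM columns belonged to a sample, and 5 that belonged to none were left out. PKM2 KO replicate 3 was not analysed here. Genes were matched to GENCODE M21 (GRCm38): 11675 of 11706 IDs matched, and coordinates are 1-based. Of the 45 members, 18 share exon bases with another gene.

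The 11142 genes that averaged 1 RPKM or more were put on the scale log2(RPKM + 1) and tested with limma 3.58.1 (variance trend, R 4.3.3) and Benjamini-Hochberg adjustment over all of them, at a threshold of 0.05. Fold changes are those of log2(value + pseudocount), which understates them for low genes. TEPP-46 and genotype comparisons used their own groups; PKM2 WT against vehicle and the difference of effects used 4 group means over 11 libraries. Shares were tested with exact two-sided permutation tests (scipy 1.17.1); with doubled tails the smallest p is 0.2 for 3 against 2 libraries and 0.1 for 3 against 3. The labels do not tie libraries to animals, so p-values rest on differences among these libraries, some of which may be technical. Depth is unknown: of 76 to 133 genes under 300 bases compared between libraries, at most 7 shared a ratio within 0.0015 (natural log).

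The text names the members with the smallest p in each experiment, the largest called differences against vehicle with groups apart, paralog families, eIF2 subunits, the extremes by level, and up to 6 called genes per list with the eIF2 kinases and eIF4E binding proteins; other genes were named after their values were seen. The members and lists were chosen with earlier results of these data known. The tests were checked on simulated data. Alternatives were another pseudocount, filter, scaling, gene set, spread, a replicate block, a Y-linked covariate and leaving out each library. Plots were made with matplotlib 3.10.9 (Python 3.11.15).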

Additional observations from a re-analysis of the deposited data

How the results depend on the processing

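Called counts of members and lists stayed within 1.5 times under every alternative run. There were 4 to 7 members higher and 27 to 34 lower in the WT-labelled libraries than in vehicle. Leaving out 1 library gave 4 to 5 higher and 29 to 33 lower. For TEPP-46, PKM2 KO and the difference of effects the member count was 0. In the main fits of these, 0, 11 and 6 of all 11142 genes passed, so a count of 0 says little about stability. Against vehicle, Eif3m turned to 0.14 (quantile normalization) and 0.032 (rescaling, also with the replicate block). Eif1 turned to 0.092 (quantile), and Eif2a to 0.14 (replicate block with rescaling, added after seeing the data). Of these, Eif3m under quantile normalization and Eif2a passed as higher (limma adjusted p = 0.0283 and 0.045). The PKM2 KO median turned to 0.0049 (quantile) and 0.0072 (rescaling). Members that passed in neither setting and changed sign are not counted here; they were 3 to 11 per setting for PKM2 KO where any did, 1 to 5 for TEPP-46.

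Under quantile normalization the share difference, TEPP-46 minus vehicle, was 0.13 points for Eif4a1, 0.53 for Eif4a2 and -0.66 for Eif4a3, and PKM2 WT minus vehicle 18.5 for Eif4e2, 5.25 for Eif4e3, 4.16 for Eif4g3, -26.1 for Eif4a1 and -4.29 for Eif1a. The Eif1a share, PKM2 KO minus PKM2 WT, ran from 0.22 to 2.02 with 1 library left out. The cause was not tested.

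Same-numbered TEPP-46 and vehicle libraries correlated in their deviations with r of 0.05, 0.28 and 0.27, and PKM2 KO and WT with 0.07 and -0.10. As the labels name no pairs, the numbers were not taken as pairs in the main tests. Each TEPP-46 library correlated best with its own number (r of -0.28 to 0.0013 with vehicle libraries of other numbers). The sample order also sets same-numbered vehicle and TEPP-46 libraries side by side. The drug libraries may thus be paired, and TEPP-46 results are given with and without the block. With the replicate block 0 members passed for TEPP-46 (smallest limma adjusted p 0.103) and 0 for PKM2 KO (1 unadjusted). For TEPP-46, 31 members were lower and 1 higher at unadjusted p under 0.05 (71.1%, and 23.3% of all genes). With the spread taken from all 11 libraries 17 members had such a p, all lower (12.3% of all genes had it). Against vehicle Eif3j1 passed only with the block (-0.16, limma adjusted p = 0.0235). Block fits over all 11 libraries, as in this comparison, join equal numbers of 2 separate experiments. Same-numbered WT-labelled and vehicle libraries correlated with r of -0.10, 0.06 and 0.10. Pkm was at 76.7 and 78.4 RPKM in the KO-labelled libraries against 198 to 221 in those labelled PKM2 WT. The Pkm difference, PKM2 KO over WT, was -1.40 (limma adjusted p = 0.00847). With the block it was -1.42 (limma adjusted p = 0.267), and 0 of 11142 genes passed. PKM2 WT replicate 3 has no PKM2 KO library of its number, so this block leaves little to estimate the spread from and cannot decide on Pkm. The Pkm difference also did not pass with block and median shift (-1.42), block and rescaling (-1.39) or Y-linked transcripts as covariate (-1.39). Without 1 library it ran from -1.35 to -1.42, and did not pass without PKM2 WT replicate 2 or either PKM2 KO library. The number of libraries, and an unknown depth, limit the precision.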
